A study of Homo sapiens with 10 samples.

Results

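Genes of cellular iron handling were followed across the libraries: TFRC, SLC11A2, CYBRD1 and TF, which serve uptake, FTH1 and FTL, which serve storage, SLC40A1 and HEPH, which serve export, and IREB2 and ACO1, which sense iron. They were chosen by gene symbol, with earlier results of these data known, and are 10 of 60554 genes in the deposited tables. RNA came from Caco-2, a human colon carcinoma line with features of enterocytes, seeded as monolayers. All groups carried dCas9-KRAB, a Cas9 that binds DNA without cutting and is fused to a repressor domain, in a monoclonal line selected with puromycin. The groups were gCtl, which received an empty gRNA plasmid (n = 5), and g1 (n = 3) and g2 (n = 2), which received a gRNA against the long non-coding RNA LHFPL3-AS2. The gRNA was expressed from a U6 promoter on a lentiviral plasmid with a hygromycin gene, and cells of all groups were selected with hygromycin. The labels do not say whether the libraries of a group came from separate cultures, so a p-value measures only the spread between these libraries, which may be technical.

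Iron bound to transferrin (TF) enters a cell with the transferrin receptor (TFRC), while enterocytes also take up dietary iron with the ferric reductase CYBRD1 and the transporter SLC11A2. Iron is stored in ferritin, a shell of heavy (FTH1) and light (FTL) chains, and leaves through ferroportin (SLC40A1) with the help of the ferroxidase hephaestin (HEPH). When iron is scarce, the iron regulatory proteins ACO1 and IREB2 bind a hairpin called the iron-responsive element, which protects TFRC mRNA when it lies in the 3′ UTR and blocks translation of ferritin and ferroportin mRNA when it lies in the 5′ UTR.

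The hairpins are shown because they are a sequence that some of the members share, and because they mark which mRNA ends and starts hold its letters. The letters searched were C, any 5 bases and the loop CAGTGN, followed by 5 bases that pair with the 5 bases before the loop (G with U allowed), or by 6 with 1 base unpaired, on the strand of the RNA in GENCODE v29 transcripts (GRCh38). Each sequence has 24 bases, and capitals mark the loop. The 4 matches in the TFRC 3′ UTR, in order along the mRNA, the matches in the 5′ UTR of FTH1, FTL and SLC40A1, and the match with 1 unpaired base in the 3′ UTR of SLC11A2 read as follows.
TFRC, chr3:196050981-196051004, minus strand: tatcggaagCAGTGCcttccataa
TFRC, chr3:196050577-196050600, minus strand: tatcgggagCAGTGTcttccataa
TFRC, chr3:196050512-196050535, minus strand: tatcggagaCAGTGAtctccatat
TFRC, chr3:196050465-196050488, minus strand: tatcgggaaCAGTGTttcccataa
FTH1, chr11:61967576-61967599, minus strand: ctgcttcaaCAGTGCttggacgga
FTL, chr19:48965338-48965361, plus strand: ttgcttcaaCAGTGTttggacgga
SLC40A1, chr2:189580663-189580686, minus strand: cttcagctaCAGTGTtagctaagt
SLC11A2, chr12:50988271-50988294, minus strand: catcagagcCAGTGTgtttctatg
The 3′ UTRs of TF and IREB2 also held 1 match each, and no UTR match was found in CYBRD1, HEPH or ACO1. Of 19669 coding genes searched over their whole transcripts, 4.26% held a match and 1.48% held one without an unpaired base. A match describes letters and is not evidence of binding.

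LHFPL3-AS2, against which the guides were designed, was not measured lower with g1 or g2 than with the empty plasmid in these libraries, where it held only 4.39 to 44.0 estimated counts. It stood at 1.73, 0.84, 3.73, 1.73 and 3.12 RPM (counts scaled to a library total of 1000000) in the gCtl libraries, at 3.07, 3.95 and 2.03 in g1 and at 2.16 and 6.01 in g2 (p = 0.19 in an exact permutation test, two-sided, of 5 against 5 on log2(RPM + 1)). Without a known strand setting, reads of this antisense RNA and of a gene on the other strand cannot be told apart. The comparisons below are therefore between libraries labelled knockdown (g1 and g2 together) and libraries labelled gCtl. Totals ran from 3838803 to 8730468 estimated counts per library. Of 10 markers of intestinal epithelium 8 passed 3 RPM in every library, KRT20 and LGALS4 being the exceptions, and of 9 markers of blood, stroma and vessel 0 did. Summed, the former held 1894 to 2458 RPM in gCtl and 1766 to 2195 RPM in knockdown, and the latter 9.21 to 16.4 RPM and 8.53 to 22.6 RPM. The level of GAPDH, the reference gene of the study's qPCR, fell 3.05-fold by the mean of log2 values, from 321 ± 102 CPM (SD, n = 5) in gCtl to 102 ± 27.4 CPM (SD, n = 5) in the knockdown libraries, and 1 gCtl library, gCtl 5, stood closest to the knockdown libraries in TFRC and FTL. Division by GAPDH counts therefore raises nearly every gene in knockdown: the median difference over 11526 genes with a count in every library was 1.61 on the log2 scale, 97.9% of them were above 0, and 49.8% of all other genes tested were higher without overlap. On this scale the differences of FTL (0.071), TFRC (0.62), ACO1 (1.41) and SLC11A2 (1.47) lay below that median, and those of IREB2 (1.86), SLC40A1 (1.915), HEPH (2.136), FTH1 (2.20) and CYBRD1 (3.255) lay above it. The difference from 0 on this scale is not read as a change of a single gene.

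Levels are given in CPM, counts scaled to a TMM-adjusted library size of 1000000. Changes were called where edgeR's Benjamini-Hochberg adjusted p was at most 0.05 and the fold change was at least 1.5. Among 11640 genes tested, 2232 (19.2%) were called between knockdown and gCtl, 11.0% lower and 8.14% higher. Of the 9 iron genes tested, 4 were called: TFRC and FTL were lower, FTH1 and CYBRD1 were higher. The median log2 fold change was 0.25 over the 9 and 0.02 over all genes tested. The libraries of the groups did not overlap for TFRC, FTL and CYBRD1, and for 15.4% of all genes tested. TF lay under the expression filter, and CYBRD1 passed it only through libraries labelled knockdown, so its call depends on where it is high and the count of calls is a description of the list and not a test of it.

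**Figure D1:**
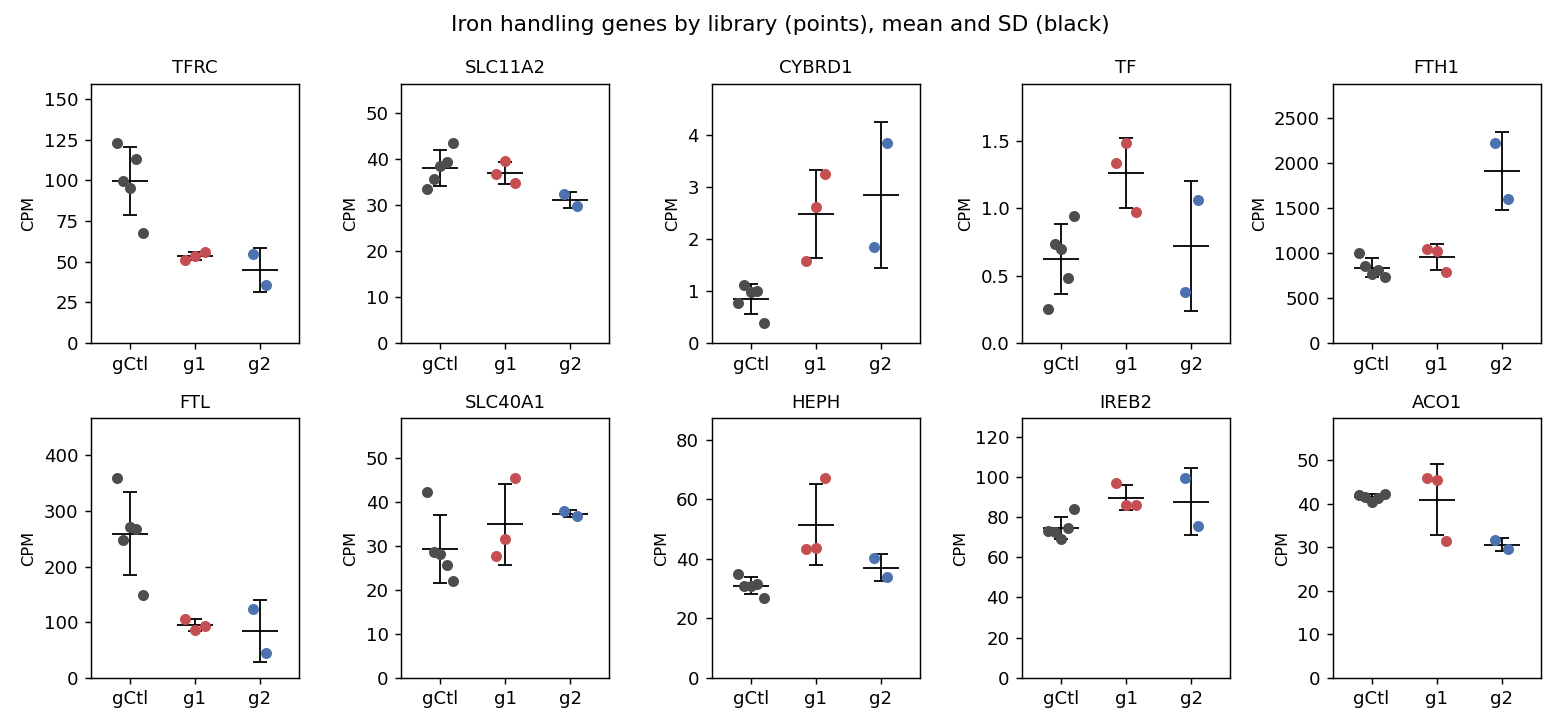
Level of each of the 10 genes in each library in CPM on a linear axis from 0; points are libraries, black marks the mean and SD of gCtl (n = 5), g1 (n = 3) and g2 (n = 2). On this scale TFRC and FTL lie lower in every library labelled g1 or g2 than in every gCtl library, and FTH1 lies highest in the g2 libraries; GAPDH, which is not drawn, moved the same way as TFRC and FTL.

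TFRC carries transferrin-bound iron into the cell (ENSG00000072274.12, GRCh38 chr3:196027183-196082189, minus strand). It measured 123, 99.9, 95.6, 113 and 67.5 CPM in gCtl 1 to 5, 50.8, 53.6 and 55.8 CPM in g1 1 to 3, and 54.6 and 35.5 CPM in g2 1 and 2. Every library labelled g1 or g2 was below every gCtl library, with gCtl 5 the nearest to them. The mean was 99.7 ± 21.0 CPM (SD, n = 5) in gCtl, 53.4 ± 2.51 CPM (SD, n = 3) in g1 and 45.0 ± 13.5 CPM (SD, n = 2) in g2. TFRC was 1.99-fold lower in knockdown than in gCtl on the TMM scale (log2 fold change -0.99, SE 0.17, adjusted p = 0.00116), while relative to GAPDH counts the difference was 0.62, beside 1.61 for the median gene. Both guides gave calls, at -0.90 (SE 0.19, adjusted p = 0.00418) for g1 and -1.15 (SE 0.22, adjusted p = 0.00206) for g2. These comparisons share the 5 gCtl libraries. The guides did not differ detectably in TFRC (g2 against g1, log2 fold change -0.25, SE 0.23, adjusted p = 0.582). Because RNA was pooled over many cells, fewer cells with the mRNA and less of it per cell cannot be told apart.

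The counts of TFRC were not spread evenly over its transcripts. QuantSeq reads start near the polyA tail, and 2 coding transcripts of TFRC end at chr3:196049284, downstream of the 4 hairpins. Counts at this end were 438, 466, 470, 423 and 247 in gCtl 1 to 5, 174, 122 and 199 in g1, and 233 and 120 in g2. Counts assigned to the other 13 transcripts were 53.0, 77.9, 78.3, 45.8 and 137 in gCtl 1 to 5, 131, 132 and 259 in g1, and 71.9 and 125 in g2. Most of the latter fell on TFRC-005, an annotated nonsense-mediated decay transcript of 524 bases whose 3′ end lies at chr3:196071440.

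Scaled by library, TFRC at the mRNA end was 84.5 ± 25.6 CPM (SD, n = 5) in gCtl and 27.6 ± 8.94 CPM (SD, n = 5) in knockdown, 3.04-fold lower by the mean of log2 values, with no overlap (p = 0.00794 by exact permutation, two-sided, the least possible with 5 and 5; adjusted over 16 such tests 0.0159). Relative to GAPDH this measure was not tested. By the same mean of log2 values GAPDH itself was 3.05-fold lower (log2 difference -1.61, beside -1.604 for TFRC at the mRNA end). The other TFRC transcripts held 15.3 ± 5.12 CPM (SD, n = 5) and 22.5 ± 7.45 CPM (SD, n = 5), which overlapped (exact p = 0.111). The end therefore took 83.0% ± 10.7 (SD, n = 5) of TFRC counts in gCtl and 54.8% ± 13.0 (SD, n = 5) in knockdown (exact permutation p = 0.0159, adjusted 0.0212). This share needs no scaling between libraries. The division of TFRC by transcript end was not planned and was made after the values were seen. The permutation p-values of its levels and share are therefore descriptive only. From counts rounded to whole numbers it was 64.3% in gCtl 5 (Wilson 95% interval 59.4% to 69.0%, which covers counting error only) and 85.7% to 90.2% in the other gCtl libraries, 57.0%, 48.0% and 43.4% in g1, and 76.6% and 49.2% in g2. One g2 library thus lay above gCtl 5. With the end alone the edgeR log2 fold change of TFRC was -1.61 in knockdown, -1.68 for g1 and -1.52 for g2, an alternative added after the values were seen. Kallisto divides a read among the transcripts it fits, so a count on a short transcript is an estimate.

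**Figure D2:**
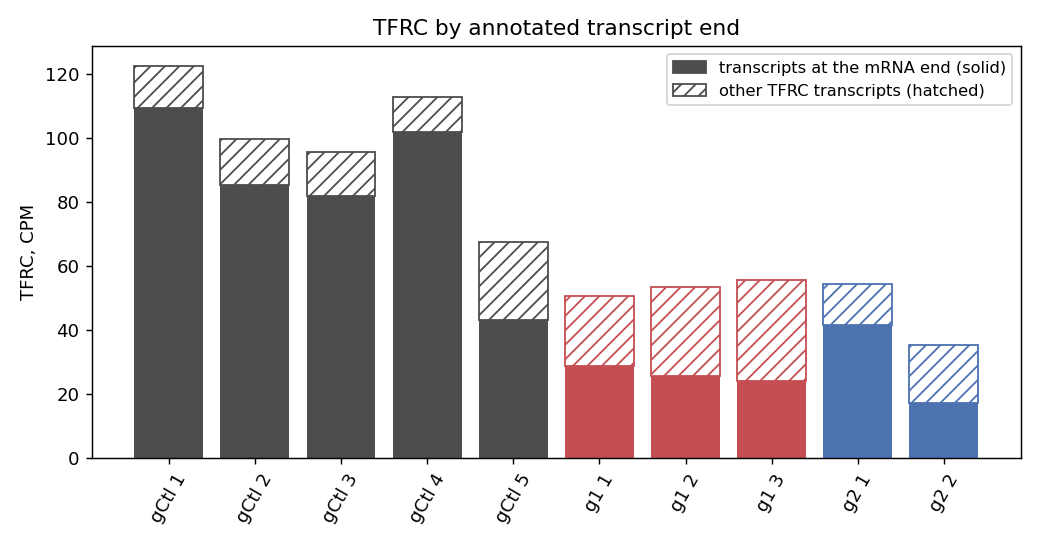
TFRC in each library in CPM on a linear axis from 0, stacked into transcripts that end at the mRNA end (solid) and all other TFRC transcripts (hatched); bars are single libraries of gCtl, g1 and g2. The solid part is 43.4 to 109.5 CPM in gCtl and 17.4 to 41.7 CPM in the libraries labelled g1 or g2, and the hatched parts overlap.

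The level of TFRC over the 10 libraries was most like that of OCIAD1, TAF9, ARMC6, SNRPB and MGST3. These had the smallest root mean square difference from TFRC in log2(CPM + 1) taken relative to the gCtl mean, 0.13, 0.13, 0.15, 0.15 and 0.16, against a median of 0.80 over all genes tested. Their log2 fold changes in knockdown lay between -1.08 and -0.997, beside -0.99 for TFRC. Because the genes were picked for this likeness in the same libraries, both the small differences and the similar fold changes follow from the selection.

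Neither uptake gene of the apical membrane was called lower on the TMM scale. SLC11A2 imports ferrous iron (ENSG00000110911.14, chr12:50979401-51028566, minus strand) and measured 33.4, 35.5, 38.5, 39.3 and 43.4 CPM in gCtl 1 to 5, 36.6, 39.5 and 34.7 CPM in g1, and 32.3 and 29.8 CPM in g2. Only the g2 libraries lay under every gCtl library, which 38.0% of all genes tested also did in g2 in one direction or the other. Its log2 fold change was -0.14 in knockdown (SE 0.13, adjusted p = 0.474), -0.04 for g1 (SE 0.14, adjusted p = 0.858) and -0.29 for g2 (SE 0.16, adjusted p = 0.197), none of which passed. Relative to GAPDH counts the difference was 1.47, beside 1.61 for the median gene.

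SLC11A2 has mRNA ends with and without the hairpin. The 3 transcripts that end at chr12:50985992, after the hairpin, held 81.0% ± 3.72 (SD, n = 5) of the gene's counts in gCtl and 79.5% ± 4.21 (SD, n = 5) in knockdown, with overlap (p = 0.556 by exact permutation, two-sided). Most of these counts were assigned to a retained-intron transcript, SLC11A2-009, that ends there. The end at chr12:50979535, without the hairpin, held 13.1 to 31.4 counts per gCtl library, 20.5 to 24.5 in g1 and 32.4 and 32.0 in g2. At this depth a shift between the ends was not detectable, and with coding transcripts alone its direction turned.

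CYBRD1 reduces ferric iron at the cell surface (ENSG00000071967.11, chr2:171522247-171558133, plus strand) and was near the limit of detection. It had 3.07, 6.09, 5.65, 4.15 and 2.13 counts in gCtl 1 to 5, 9.44, 12.4 and 26.7 in g1, and 10.3 and 26.4 in g2. No gCtl library reached the lowest of the others. The log2 fold change was 1.61 in knockdown (SE 0.44), 1.53 for g1 (SE 0.50) and 1.72 for g2 (SE 0.54). Only g1 3 and g2 2 exceeded the minimum of the filter, so a p among the filtered genes depends on the libraries where CYBRD1 is high. With no filter on low values edgeR gave 1.55 in knockdown (SE 0.53, adjusted p = 0.0472), and the values by guide were not called (adjusted p = 0.0939 for g1 and 0.0734 for g2). The pooled value was 0.88 with limma on log2(RPM + 1). Of its counts 80.7% were assigned to a processed transcript, CYBRD1-004, that has no coding sequence, so most of these counts are not counts of the coding mRNA. Without g1 3 or g2 2 the gene did not pass the filter.

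TF encodes transferrin itself (ENSG00000091513.14, chr3:133745956-133796640, plus strand) and held 1.01 to 5.36 counts in the gCtl libraries, 7.02 to 8.003 in g1, and 2.12 and 7.29 in g2. Its level, 0.62 ± 0.26 CPM (SD, n = 5) in gCtl and 1.05 ± 0.42 CPM (SD, n = 5) in knockdown, was too low to test, and most of its counts lay on a retained-intron transcript.

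On the TMM scale FTL was lower with both guides and FTH1 was higher with g2. FTL, the light chain (ENSG00000087086.13, chr19:48965301-48966878, plus strand), measured 359, 247, 271, 268 and 149 CPM in gCtl 1 to 5, 106, 85.9 and 92.9 CPM in g1, and 124 and 44.5 CPM in g2. Every library labelled g1 or g2 lay below every gCtl library. FTL was 2.86-fold lower in knockdown on the TMM scale (log2 fold change -1.52, SE 0.25, adjusted p = 0.000873), while relative to GAPDH counts the difference was 0.071, beside 1.61 for the median gene. The guides gave -1.45 (SE 0.29, adjusted p = 0.00307) for g1 and -1.63 (SE 0.34, adjusted p = 0.00338) for g2. Without g2 2, which had the lowest FTL, the value for g2 was -1.06, and without g2 1 it was -2.54.

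FTH1, the heavy chain with ferroxidase activity (ENSG00000167996.15, chr11:61959718-61967660, minus strand), measured 1006, 860, 766, 815 and 733 CPM in gCtl 1 to 5, 1050, 1022 and 792 CPM in g1, and 2221 and 1606 CPM in g2. The g1 libraries overlapped gCtl, and the g2 libraries lay above all others. The pooled log2 fold change of 0.68 (SE 0.23, adjusted p = 0.0439) came with overlap of the groups and was lost without any 1 of the gCtl libraries or without either g2 library (adjusted p between 0.0522 and 0.115). By guide, FTH1 was 2.29-fold higher in g2 (log2 fold change 1.19, SE 0.17, adjusted p = 0.000256) and it gave 0.19 in g1 (SE 0.16, adjusted p = 0.425). The difference between the guides was itself called (g2 against g1, log2 fold change 1.003, SE 0.20, adjusted p = 0.00812), the only call among the 9 iron genes in that comparison, where 4.98% of all genes were called (3.42% lower and 1.56% higher). Pseudogene copies of FTH1 held between 0.204% and 1.36% of the counts of FTH1 and its copies, and adding them moved the pooled value to 0.68 as before. BEST1 overlaps FTH1 on the opposite strand, and the strand setting of the counting is not given in the sources used here.

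The ratio of the ferritin chains within a library was taken as well, a choice made after the values were seen. There were 2.80, 3.48, 2.83, 3.04 and 4.91 FTH1 counts per FTL count in gCtl 1 to 5, 9.94, 11.9 and 8.53 in g1, and 18.0 and 36.1 in g2. The groups did not overlap, and the ratio was 4.37-fold higher in knockdown (exact two-sided permutation test on the log2 ratio, 5 against 5, p = 0.00794; adjusted 0.0159). Because the choice of the ratio followed the values, this p is descriptive only. The ratio does not depend on how libraries were scaled. In g1 the fall of FTL on the TMM scale made up most of it, and in g2 both chains moved.

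**Figure D3:**
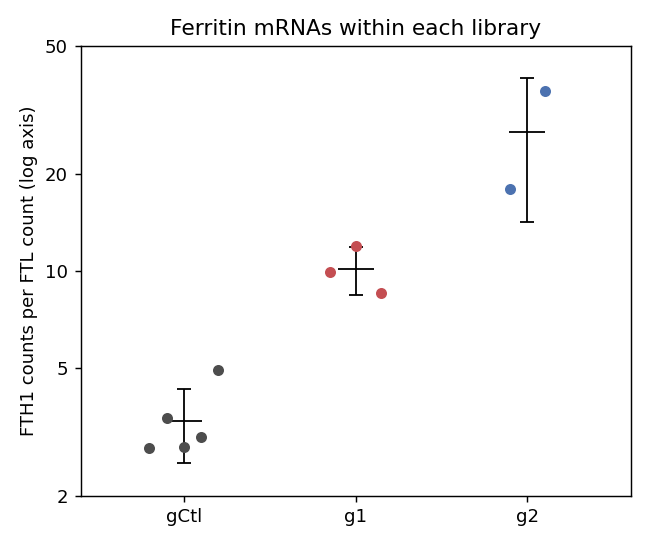
FTH1 counts per FTL count in each library on a log axis; points are libraries, black marks the mean and SD of gCtl (n = 5), g1 (n = 3) and g2 (n = 2). The gCtl libraries lie between 2.80 and 4.91, the g1 libraries between 8.53 and 11.9, and the g2 libraries at 18.0 and 36.1.

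On the TMM scale HEPH was called higher in g1 and SLC40A1 was called in no comparison. HEPH, the ferroxidase that works with ferroportin (ENSG00000089472.16, chrX:66162549-66268867, plus strand), measured 35.0, 30.8, 30.7, 31.5 and 26.7 CPM in gCtl 1 to 5, 43.3, 43.7 and 67.1 CPM in g1, and 40.3 and 33.7 CPM in g2. All g1 libraries lay above gCtl, as 26.6% of all genes tested did in one direction or the other, and 1 g2 library did not. HEPH was called in g1, where it was 1.67-fold higher (log2 fold change 0.74, SE 0.17, adjusted p = 0.00637). The call rested on g1 3, without which the value was 0.48 (adjusted p = 0.0719). In g2 the log2 fold change was 0.26 (SE 0.19, adjusted p = 0.339), and the difference between the guides was not called (-0.48, SE 0.21, adjusted p = 0.209). Pooled, it was 0.56 (SE 0.17, adjusted p = 0.0273), under the 1.5-fold minimum. The pooled value passed without gCtl 1 (0.61, adjusted p = 0.0389), without g2 1 (0.595, adjusted p = 0.0259) or without g2 2 (0.65, adjusted p = 0.0114). It fell to 0.37 without g1 3 (adjusted p = 0.0782). Without gCtl 2, 3, 4 or 5 the adjusted p lay between 0.0567 and 0.0593.

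SLC40A1, which encodes ferroportin (ENSG00000138449.10, chr2:189560579-189583758, minus strand), measured 42.2, 28.5, 28.1, 25.5 and 22.0 CPM in gCtl 1 to 5, 27.7, 31.4 and 45.3 CPM in g1, and 37.8 and 36.6 CPM in g2. The groups overlapped, and the log2 fold change of 0.30 in knockdown did not pass (SE 0.18, adjusted p = 0.251). At the mRNA end, chr2:189560579, the levels were 29.1 ± 7.65 CPM (SD, n = 5) in gCtl and 31.6 ± 7.32 CPM (SD, n = 5) in knockdown (exact two-sided permutation p = 0.579). The other transcripts of SLC40A1 held 0.85, 0, 4.11, 0 and 0 counts in gCtl 1 to 5, 28.5, 29.5 and 49.4 in g1, and 0.91 and 25.0 in g2. Nearly all of these lay on SLC40A1-008, a processed transcript of 712 bases whose 3′ end, chr2:189575161, lies upstream of the mRNA end. They were higher in all g1 libraries and in 1 of the 2 g2 libraries, a pattern singled out after the values were seen and given without a test.

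Neither iron sensor was called on the TMM scale. IREB2 (ENSG00000136381.12, chr15:78437431-78501456, plus strand) measured 72.9, 72.4, 69.4, 74.6 and 84.1 CPM in gCtl 1 to 5, 96.9, 86.2 and 85.9 CPM in g1, and 99.5 and 75.9 CPM in g2. Of the g1 libraries, g1 2 and g1 3 lay just above gCtl 5 and g1 1 further above it, without overlap as for 26.6% of all genes tested in g1, and the log2 fold change of 0.25 in knockdown did not pass (SE 0.12, adjusted p = 0.144). ACO1, which is also the cytosolic aconitase (ENSG00000122729.18, chr9:32384603-32454769, plus strand), was the most even gene of the 10 within gCtl. It measured 42.1, 41.5, 40.4, 41.4 and 42.1 CPM in gCtl 1 to 5, 45.8, 45.5 and 31.5 CPM in g1, and 31.5 and 29.5 CPM in g2. Both g2 libraries and g1 3 were low and the other g1 libraries were high. The log2 fold change was -0.44 in g2 (SE 0.17, adjusted p = 0.074) and -0.02 in g1 (SE 0.15, adjusted p = 0.926), and the pooled value was -0.18 (SE 0.15, adjusted p = 0.416), so ACO1 was called in no comparison on the TMM scale. Scaled by library totals, ACO1 was called lower in g2 (-0.60).

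By guide, 4 of the 9 iron genes tested were called in g1 (TFRC and FTL lower, HEPH and CYBRD1 higher) beside 16.8% of all genes, and 4 in g2 (TFRC and FTL lower, FTH1 and CYBRD1 higher) beside 23.7% of all genes. With no filter CYBRD1 was not among them and 3 were called with each guide, beside 7.76% of all genes in g1 and 11.5% in g2. Lower calls made up 9.94% of all genes in g1 and 13.0% in g2, and higher calls 6.81% and 10.7%.

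**Figure D4:**
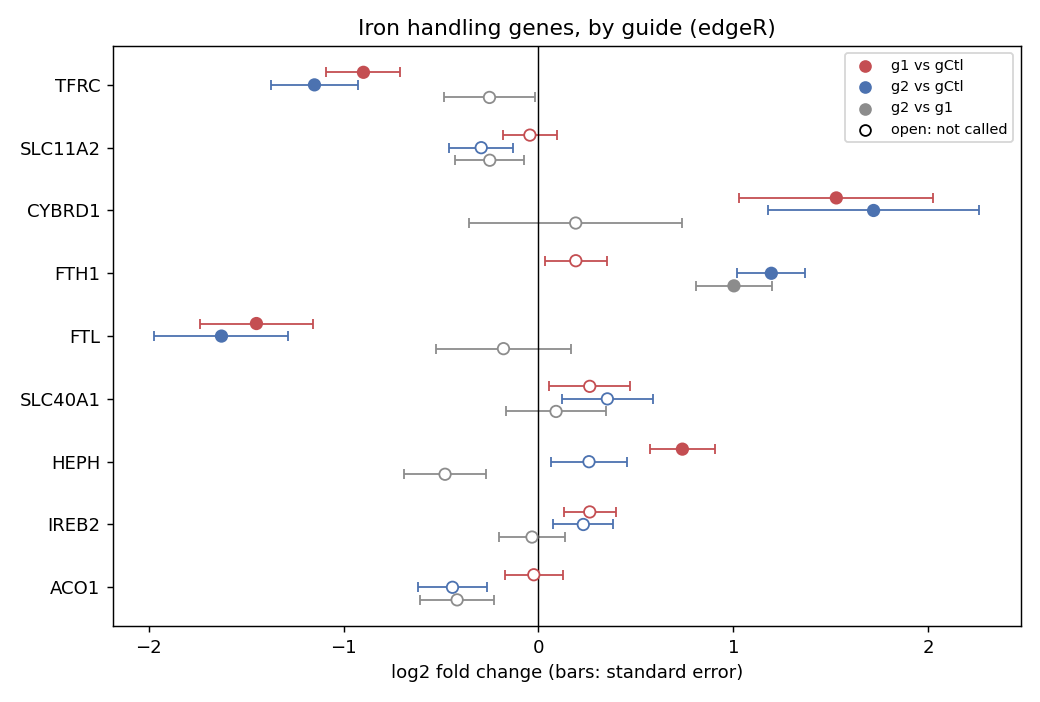
Log2 fold change (horizontal axis) of the 9 iron genes tested, by edgeR on the TMM scale, for g1 against gCtl (red), g2 against gCtl (blue) and g2 against g1 (grey); bars are standard errors and filled points were called (CYBRD1 by guide only with the filter). TFRC lies at -0.90 and -1.15 and FTL at -1.45 and -1.63 in the guides, and FTH1 is the gene whose g2 against g1 point, 1.003, is filled; relative to GAPDH the pooled differences were 0.62 for TFRC and 0.071 for FTL, beside 1.61 for the median gene.

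The other genes of iron and heme metabolism were read from a list of 72, of which 59 were tested. In knockdown 11 of the 59 (18.6%) were called, 9 lower and 2 higher, beside 19.2% of all genes, so the share was near the background. Their median log2 fold change was -0.04. In g1 13 were called (22.0%, beside 16.8% of all genes), in g2 9 (15.3%, beside 23.7%), and between the guides 2 (3.4%, beside 4.98%), SLC46A1 and FDX1L. FDX1L, a mitochondrial ferredoxin gene named after its values were seen, gave -1.28 in g2 against g1 (SE 0.32, adjusted p = 0.0308).

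Genes of uptake and the transferrin cycle had 3 lower and 1 higher call among 11 tested (36.4%), beside 19.2% of all genes called, 11.0% lower and 8.14% higher. By guide 7 of the 11 were called in g1, beside 16.8% of all genes, and 3 in g2, beside 23.7%. STEAP3, the ferrireductase of the transferrin endosome, went from 7.70 ± 2.08 to 3.66 ± 0.887 CPM (SD, n = 5 each; log2 fold change -1.07, SE 0.27, adjusted p = 0.012), but in g2 alone it was not called (-0.75, adjusted p = 0.118). STEAP1 of the same family went from 22.0 ± 2.72 to 8.45 ± 2.58 CPM (SD, n = 5 each; log2 fold change -1.38, SE 0.22) without overlap. EXOC6, a subunit of the exocyst that acts in transferrin receptor recycling, went from 18.9 ± 3.65 to 34.3 ± 7.16 CPM (SD, n = 5 each; log2 fold change 0.87, SE 0.18), and the groups did not overlap, as for 15.4% of all genes tested. The retromer subunit VPS35, the gene of this role with the highest mean, gave 0.47 (SE 0.14), under the fold-change minimum, and was called higher in g1 (0.61, adjusted p = 0.00673).

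Mitochondrial iron and iron-sulfur cluster genes had 3 lower calls among 22 tested (13.6%), near the 11.0% of all genes called lower. SLC25A37, the mitochondrial iron importer mitoferrin-1, went from 97.2 ± 3.65 to 46.6 ± 9.87 CPM (SD, n = 5 each; log2 fold change -1.06, SE 0.15) and all knockdown libraries were below all gCtl libraries. SLC25A28, mitoferrin-2, gave -0.94 (SE 0.33) from a mean of 2.96 CPM in gCtl and counts among the 3, but it passed the filter only through gCtl 3 and gCtl 5, where it is high, and with no filter edgeR did not call it (-0.98, adjusted p = 0.178). NFS1, the cysteine desulfurase of cluster assembly, gave -0.81 (SE 0.20, adjusted p = 0.0107) with overlap of the groups. It was called in g1 (-0.95) but not in g2 (-0.62, adjusted p = 0.0866). The chaperone HSPA9, with the highest mean, gave -0.03 (SE 0.15).

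Heme genes had 3 lower and 1 higher call among 13 tested (30.8%), beside 19.2% of all genes called, 11.0% lower and 8.14% higher. Among the lower calls were the synthesis enzyme UROD (-1.12 on the log2 scale, SE 0.27) and the biliverdin reductase BLVRB (-0.78, SE 0.24). For both the libraries of the groups overlapped. UROD was called with each guide, while BLVRB was called in g2 (-1.03) but not in g1 (-0.63, adjusted p = 0.0958). SLC46A1, the proton-coupled folate transporter also described as a heme carrier, went from 144 ± 24.1 to 224 ± 61.6 CPM (SD, n = 5 each; log2 fold change 0.64, SE 0.19, adjusted p = 0.0221). It was higher in g1 (0.90, SE 0.15) and not called in g2 (0.14, SE 0.17), and the guides differed (g2 against g1, -0.76, SE 0.19, adjusted p = 0.0313). The pooled call of SLC46A1 was lost without g1 1, g1 3, gCtl 2, gCtl 3 or gCtl 4, with library totals and with limma (0.52), and that of BLVRB without gCtl 2, gCtl 5, g1 2 or g2 2.

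No gene was called in knockdown among iron chaperones and ferritin turnover (2 tested), iron sensing and the hepcidin axis (5 tested), export and plasma carriers (2 tested) or other mRNAs with an iron-responsive element (4 tested). Their genes with the highest mean were PCBP2, an iron chaperone (0.51, SE 0.11, adjusted p = 0.00572, under the fold-change minimum), SKP1, a subunit of the ubiquitin ligase that degrades IREB2 (0.12, SE 0.15), the ferroxidase CP (-0.23, SE 0.43) and the kinase CDC42BPA (-0.44, SE 0.14). PCBP2 did not overlap between knockdown and gCtl, as for 15.4% of all genes tested, and was called higher in g2 (0.59, adjusted p = 0.00614).

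**Figure D5:**
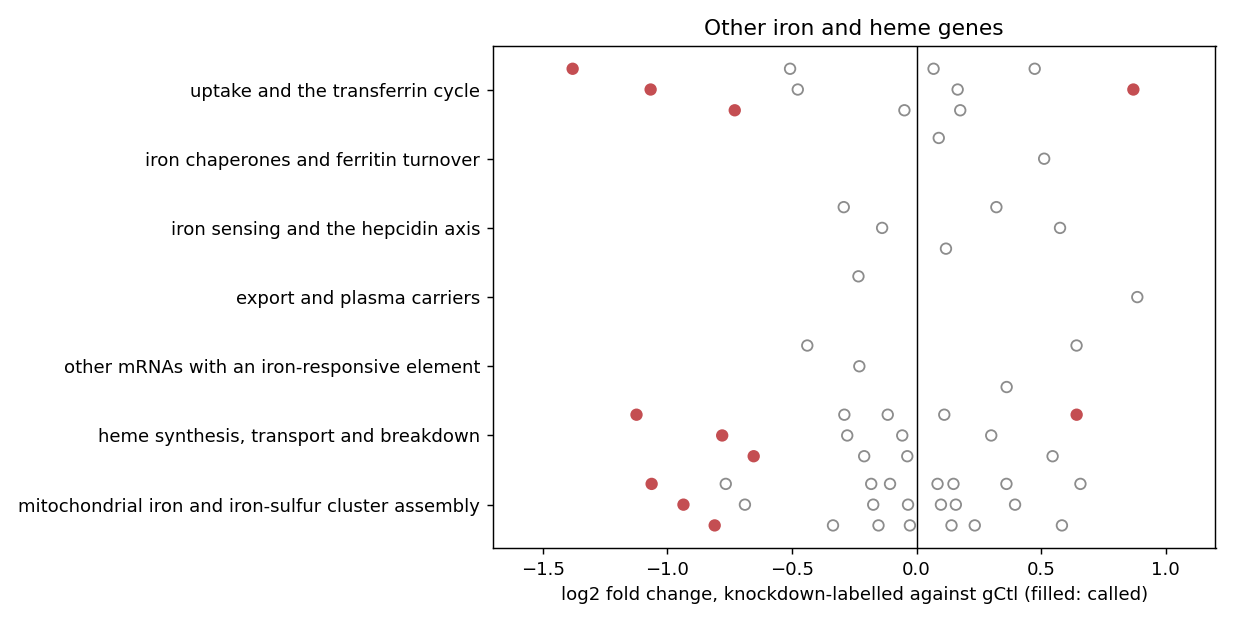
Log2 fold change (horizontal axis, knockdown against gCtl, edgeR on the TMM scale) of the 59 tested genes of iron and heme metabolism by role (rows); filled points were called, and the vertical spread within a role has no meaning. The 9 lower calls are in uptake, heme and mitochondrial genes and the 2 higher calls are EXOC6 and SLC46A1.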

How the data were processed

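Lexogen QuantSeq 3′ libraries were sequenced by the authors and quantified with Kallisto (42.5 per the labels) on GENCODE v24 transcripts (GRCh38). The authors deposited expected counts, that is estimated counts per transcript, neither normalized nor summed per gene, for 199169 transcripts in each of 10 libraries. Here they were summed per gene and rounded, and genes with a protein-coding transcript and over 3 RPM in at least 20% of libraries (11640) were fitted with edgeR 4.0.16 in R 4.3.3 (TMM, glmQLFit, glmQLFTest), pooled and with 3 groups, with Benjamini-Hochberg adjustment over all genes. CPM uses TMM library sizes. Ratios, shares and single levels, among them ratios to GAPDH and GAPDH itself, entered 16 exact permutation tests (two-sided). Transcript ends and hairpins were read from GENCODE v29, where 99 of the 105 transcripts of the 10 genes had the same version, 5 another version and 1 was not matched. Totals of 3838803 to 8730468 counts make 3 counts equal to 0.344 to 0.781 RPM. In the 14 pairs of libraries of one group, chi-square over its degrees of freedom was at least 4.28, so each was kept as a library of its own.

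The genes named are the 10 genes, the 5 most like TFRC, and in each role up to 3 called genes with the largest change and the gene with the highest mean, with GAPDH, but 1 gene that this takes in is not reported here. Genes and lists were chosen with earlier results of these data known. Alternatives were DESeq2 1.42.0, limma 3.58.1 on log2(RPM + 1), other scalings and filters, genes of all biotypes, GAPDH as reference, added pseudogenes, other fold-change tests, transcript subsets and each library left out. On simulated counts of 11640 genes with 200 changed 3-fold, edgeR recovered 100% in knockdown against gCtl, 98.0% in g1 and 92.5% in g2. It made 7, 13 and 10 false calls in these comparisons. The genes changed were not near the floor, so recovery of smaller changes, or of genes as low as CYBRD1, was not measured.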

Additional observations from a re-analysis of the deposited data

Results flagged for a closer look

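In gCtl 5 the share of TFRC counts at the mRNA end was 64.2% before rounding of the counts, far from the 4 other gCtl libraries at 85.7% to 90.2%, by Dixon's test on the gap to the nearest library. In the same library the other TFRC transcripts held 24.2 CPM, against 11.0 to 14.3 CPM in the rest of gCtl. Both values come from the same counts. Such a test was made on 18 measures, and chance gives about 1 in 20. Without gCtl 5 the log2 fold change of TFRC in knockdown was -1.115.

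The effect of the guides on FTH1 differed by 1.003 on the log2 scale (g2 against g1, edgeR adjusted p = 0.00812). Both g2 libraries lay above all 3 g1 libraries. The difference was -0.76 for SLC46A1 (adjusted p = 0.0313) and -1.28 for FDX1L (adjusted p = 0.0308), and both calls were lost without g1 1, without g1 3 or without g2 2.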

How the results depend on the processing

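Each result was recomputed under up to 26 alternatives. FTL (knockdown and both guides), TFRC in g2 and FTH1 in g2 were called under all edgeR, DESeq2 and limma alternatives run. Where 1 g2 library is left out, the lone g2 library is assumed to vary like the other groups, so those fits do not test the spread within g2. FTH1 in knockdown lost its call under 11 of 25, among them library totals and leaving out any gCtl library or either g2 library (0.41 to 0.75 on the log2 scale for these libraries). CYBRD1 lost its call under 11 of 20 in g1, among them no filter, library totals, all biotypes, limma and leaving out any gCtl library or g1 2, and under 4 of 20 in g2, no filter, limma, the 1.5-fold test and leaving out gCtl 1.

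A test against a fold change of 1.5 left TFRC in knockdown at -0.99 without a call, and left 1 iron gene in knockdown, 1 in g1, 3 in g2 and 0 between guides, and 2, 1, 3 and 0 of the other iron and heme genes, beside 4.19%, 4.35%, 6.89% and 0.79% of all genes. Without a fold-change minimum 17 of these passed in knockdown, beside 23.6% of all genes. Fitting the compared groups alone left 0 of these between guides, beside 159 of all 11640 genes tested, while FTH1 stayed called. Without gCtl 5 and g1 3 together 2 iron genes were called in g1, beside 1654 of all 11513 genes tested. Between guides 1 other iron and heme gene was called there, beside 696 of the 11513. TFRC and FTL stayed called in g1 with any single library left out, and HEPH lost its call in g1 only without g1 3.

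Relative to GAPDH the sign turned for TFRC (0.62), SLC11A2 (1.47), FTL (0.071) and ACO1 (1.41) in knockdown. The median over all genes was 1.61 on that scale. TFRC, SLC11A2 and ACO1 passed the exact permutation test there (adjusted p = 0.0212 each), and FTL did not (adjusted p = 0.706). SLC40A1 (1.915), HEPH (2.135), IREB2 (1.86), FTH1 (2.20) and CYBRD1 (3.255) passed it too (adjusted p = 0.0159 each). Since this scale raises nearly every gene, neither the signs nor the passes are read as changes of single genes. SLC11A2 counts by transcript end, given as the share at the hairpin end, differed by 6.1 percentage points with coding transcripts alone, and by -2.997 to 0.059 with a library left out. Between guides TFRC turned to 0.16 at the mRNA end, which its coding transcripts alone repeat, and SLC40A1 to -0.01 with library totals. Without gCtl 5 and g1 3, SLC11A2 (0.035), SLC40A1 (-0.086) and ACO1 (0.13) turned in g1. With single libraries left out, values between guides ran from -0.58 to 0.048 for TFRC, -0.061 to 0.62 for CYBRD1, -1.08 to 0.40 for FTL, -0.052 to 0.35 for SLC40A1 and -0.23 to 0.17 for IREB2, ACO1 in g1 from -0.12 to 0.12, and in knockdown CP from -0.70 to 0.0013 and HSPA9 from -0.12 to 0.080. Apart from the scale of GAPDH, none of the turned values passed a test, and the cause was not tested.

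Library totals moved the median of all genes in g2 to -0.16. CYBRD1 had no value where g1 3 or g2 2 was left out. No paired analysis was possible because the labels carry no replicate numbers. Counts of 1 to 27 per library limit CYBRD1 and TF.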
